A study of Arabidopsis thaliana with 6 samples.

Results

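The 4 genes described here belong to families of secreted, defence-type proteins, and all had higher transcript levels in floral buds of both atyak1 mutants than in the wild type. They are AT5G03350, a lectin of the legume type, THI2.2, a thionin, and AT5G01870 and AT5G55450, both lipid transfer proteins. They are 4 of 13286 Arabidopsis thaliana genes with a named probe set on the array, and each is measured by 1 probe set. The genes were chosen by their higher signal in the mutants on these same arrays, together with their protein families, so the difference between mutants and wild type is given below as a description, without a test. Secretion and defence are named here from the families alone, as no protein was measured.

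RNA from mixed floral buds of the main inflorescence, of stages no later than 13, was hybridised to 6 Affymetrix ATH1 arrays, which carry sets of short oligonucleotide probes. The plants were of the Col-0 ecotype, 42 days old, and had 12 h of light and 12 h of darkness a day. The 3 groups, the wild type, atyak1-1 and atyak1-2, had 2 biological replicates each. Both lines are mutant for the kinase AtYAK1, a member of the DYRK group, which the study examined for its role in forming the pollen. What was altered in each allele is not stated in the labels, and the transcript of AtYAK1 was not analysed here, so the genotypes were not checked against it. Values are linear MAS5 signals, whose precision is limited by how few arrays there are.

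Plants hold ready, or make on attack, small secreted proteins that act outside the cell. Thionins are cysteine-rich peptides that damage the membranes of microbes. Lipid transfer proteins are also cysteine-rich, carry lipids in a hydrophobic pocket, serve in building the cuticle, and in some cases act in defence signalling, as DIR1 does in systemic acquired resistance. Legume-type lectins bind sugars, and AT5G03350 is known as a transcript that salicylic acid induces. Many genes of these families are also active in healthy flowers.

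Median signals lay between 213 and 223. The 3′ over 5′ ratio of the GAPDH control, which reflects RNA integrity, was 1.46 and 1.49 in the wild type and from 1.27 to 1.64 in the mutants, so the groups overlapped. That of the actin control was higher, at 14.4 and 7.86 on the wild-type arrays of replicate 1 and 2 and from 10.7 to 13.4 in the mutants, and its part in the results was not tested. Across 15164 probe sets tested, limma called 1.93% at an adjusted p of 0.05 between the mean of both alleles and the wild type, 0.284% higher and 1.64% lower in the mutants. The median log2 change over all probe sets tested was 0.09. Pollen and nectary transcripts were among those lower in the mutants. All 9 late pollen genes tested had lower means in the mutants, and 5 of them passed in limma. With the replicate number as a block 7 passed, where that fit called 7.59% of all probe sets tested. The summed signal of the 12 late pollen genes with a named probe set, of 14 listed, was 11576 and 14034 in the wild type and between 998 and 3082 on the mutant arrays. Much of it came from AT5G45880, with 6938 and 8169 in the wild type and between 494 and 2189 on the mutant arrays. That gene did not pass (adjusted p = 0.055, limma). Of the 4 nectary genes listed, SWEET9, a sugar exporter of nectaries, fell from 1867 and 1289 to between 15.4 and 35.5 (log2 change -5.92 ± 0.39 (SE), adjusted p = 0.0020, limma), and JMT had -0.87 ± 0.28 (adjusted p = 0.20, and 0.0065 with the replicate number as a block). The other 2 had no named probe set. In whole buds fewer cells of a type and less RNA per cell cannot be told apart, and the part of these changes in the values below was not tested.

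AT5G03350, the lectin gene, had signals of 277 and 307 in the wild type, 1002 and 956 in atyak1-1, and 811 and 762 in atyak1-2. Every mutant array lay above both wild-type arrays, and the lowest mutant signal was 2.48 times the highest wild-type signal. The change of the allele mean was 1.59 ± 0.12 on the log2 scale (SE, 4 mutant against 2 wild-type arrays), or 3.01-fold. It was 3.36-fold in atyak1-1 and 2.70-fold in atyak1-2, both measured against the same 2 wild-type arrays. Of the 4 genes this was the one with the highest fold, and in the order of log2 changes it stood at place 23 of all probe sets tested.

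THI2.2, the thionin gene, had signals of 380 and 576 in the wild type, 834 and 965 in atyak1-1, and 1020 and 1197 in atyak1-2. The mutant arrays again lay above the wild type, but by a narrower gap, with the lowest mutant signal 1.45 times the highest wild-type signal. Its change was 1.09 ± 0.19 on the log2 scale, or 2.13-fold, the lowest of the 4 genes, at place 63, with 1.92-fold in atyak1-1 and 2.36-fold in atyak1-2. The wild-type arrays differed from each other by 1.51-fold. Without wild-type replicate 1 the log2 change was 0.79, and without wild-type replicate 2 it was 1.39.

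AT5G01870, a lipid transfer protein gene, had signals of 501 and 525 in the wild type, 1347 and 1456 in atyak1-1, and 1416 and 1288 in atyak1-2. The wild-type arrays were close together, the alleles overlapped each other, and the lowest mutant signal was 2.45 times the highest wild-type signal. The log2 change was 1.42 ± 0.12, or 2.68-fold, at place 31, with 2.73-fold in atyak1-1 and 2.63-fold in atyak1-2.

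AT5G55450, the other lipid transfer protein gene, had signals of 366 and 551 in the wild type, 1079 and 1514 in atyak1-1, and 960 and 1040 in atyak1-2. The replicates of the wild type and of atyak1-1 lay apart, while those of atyak1-2 were near each other, and the lowest mutant signal was 1.74 times the highest wild-type signal. The log2 change was 1.33 ± 0.21, or 2.52-fold, at place 34, with 2.85-fold in atyak1-1 and 2.23-fold in atyak1-2. All 4 genes thus had their mutant arrays wholly above the wild type, as did 21.3% of all probe sets tested. As the same contrast chose the genes, nothing is read from that count.

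**Figure D1:**
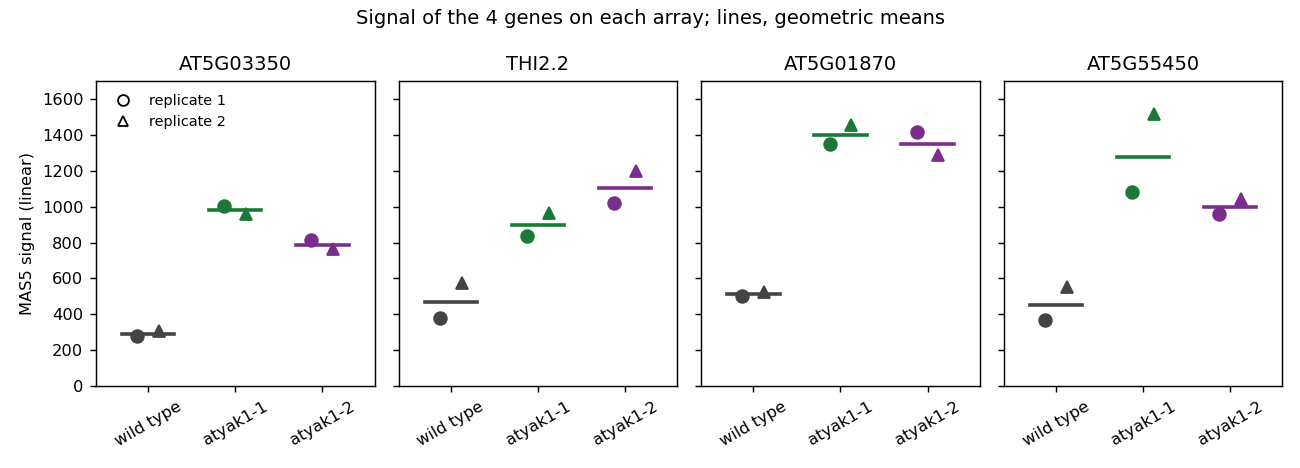
MAS5 signal (linear axis from 0) of the 4 genes on each of the 6 arrays, with circles for replicate 1, triangles for replicate 2 and a line at the geometric mean of each genotype. In each panel the 4 mutant arrays lie above both wild-type arrays, from 762 to 1002 against at most 307 for AT5G03350 and from 834 to 1197 against at most 576 for THI2.2.

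**Figure D2:**
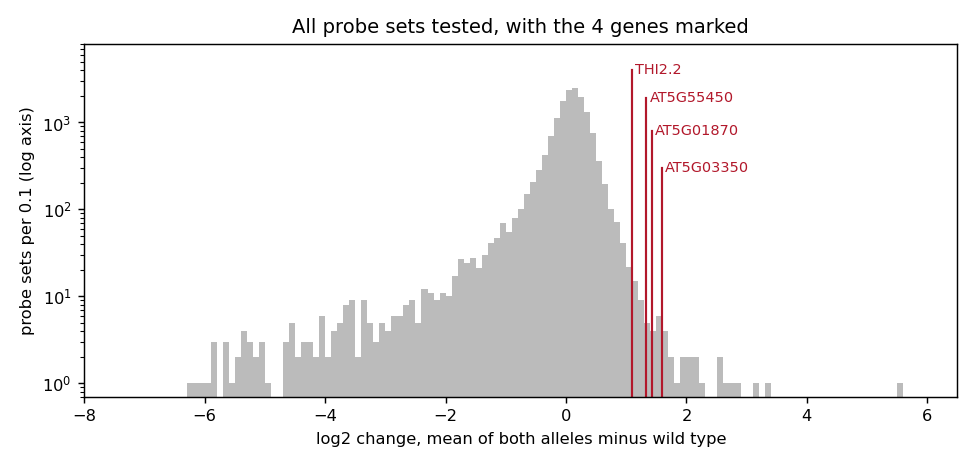
Histogram of the log2 change of the allele mean against the wild type for the 15164 probe sets tested, in steps of 0.1 with a log count axis, and a line at each of the 4 genes. The genes lie between 1.09 and 1.59 on the higher side, where few probe sets lie, while the lower side has the longer tail.

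The 4 genes differed in how steady they were between replicates. The SD of log2 signal within genotypes, pooled over the 3 genotypes, was 0.076 for AT5G03350 and 0.077 for AT5G01870, and 0.28 for THI2.2 and 0.32 for AT5G55450, where the median of all probe sets tested was 0.19. THI2.2 was higher in replicate 2 than in replicate 1 in every genotype, by 1.51-fold in the wild type, 1.16-fold in atyak1-1 and 1.17-fold in atyak1-2. AT5G55450 was likewise higher in replicate 2 in every genotype, by 1.50-fold, 1.40-fold and 1.08-fold. AT5G03350 and AT5G01870 had replicate ratios between 0.91 and 1.11 in all genotypes, with no common direction.

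Taken within replicates, the mutant arrays were above the wild type of the same number for every gene. In replicate 1 the allele mean was 3.25-fold higher for AT5G03350, 2.43-fold for THI2.2, 2.75-fold for AT5G01870 and 2.78-fold for AT5G55450. In replicate 2 the folds were 2.78, 1.87, 2.61 and 2.28 in the same order, each below that of replicate 1. Of the 43 probe sets called higher, 26 (60.5%) also had the smaller change in replicate 2, with medians of 1.14 and 1.03 on the log2 scale in replicates 1 and 2, against 48.6% of all probe sets tested. The difference between replicates was not tested, because each number has 1 wild-type array.

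The comparison of atyak1-2 with atyak1-1 asked whether the alleles act alike on these genes, and it was not used to choose them, although its error term was. No difference passed. AT5G03350 was lower in atyak1-2 by a log2 difference of -0.32 ± 0.14 (95% interval -0.65 to 0.02, adjusted p = 0.9998 in limma, 2 against 2 arrays), with both atyak1-1 arrays above both atyak1-2 arrays. THI2.2 had the opposite sign, 0.30 ± 0.22 (interval -0.23 to 0.83), with both atyak1-2 arrays above both of atyak1-1. AT5G55450 had -0.36 ± 0.24 (interval -0.94 to 0.23), and its alleles did not overlap either. Its difference was -0.60 without atyak1-1 replicate 1 and -0.11 without atyak1-1 replicate 2. AT5G01870 had -0.05 ± 0.13 (interval -0.37 to 0.27) with overlapping alleles. The adjusted p of the last 3 was 0.9998 as well. Alleles that do not overlap were thus found for 3 of the 4 genes, against 20.8% of all probe sets tested. The intervals leave room for differences of the size seen, and a p above the threshold does not show that the alleles act alike. Across the array 0% of the 15164 probe sets tested were called between the alleles, with 151 at an unadjusted p under 0.05 in limma. With the replicate number as a block, 2 were called and 403 had an unadjusted p under 0.05, so these counts depend on the pairing.

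**Figure D3:**
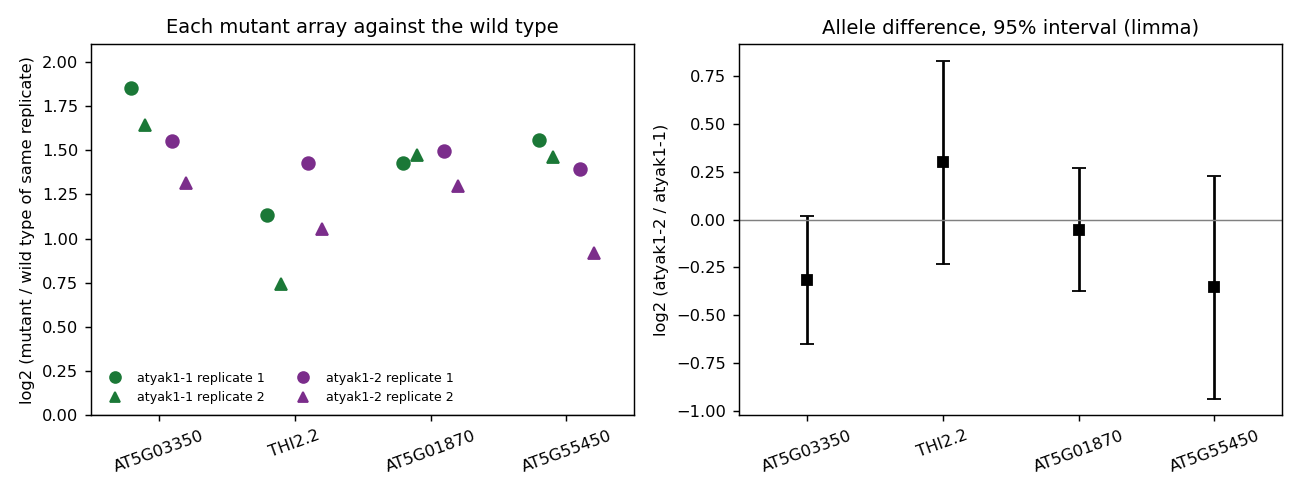
Left, log2 ratio of each mutant array to the wild-type array of the same replicate number for the 4 genes. All 16 ratios lie above 0, from 0.75 for THI2.2 in atyak1-1 to 1.85 for AT5G03350 in atyak1-1. Right, log2 difference of atyak1-2 minus atyak1-1 with its 95% interval from limma, each interval spanning 0.

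None of the other tested genes of these families passed, including THI2.1, which jasmonate is known to induce. No gene listed for salicylic acid or jasmonate defence could be tested, so those lists say nothing on the pathways. Besides AT5G01870, no type 1 lipid transfer protein gene could be tested either. Of 87 genes listed for the lectin, thionin, lipid transfer protein and defensin families and for salicylic acid and jasmonate defence, 33 had a named probe set, 29 of these besides the 4 genes, and 9 were bright enough to test. None of the 9 passed in limma over all probe sets tested, 4 had a higher and 5 a lower mean in the mutants, and 2 had an unadjusted p under 0.05, as did 17% of all probe sets tested. Their median log2 change was -0.01, beside 0.09 for all probe sets tested. With the replicate number as a block, 2 of the 9 passed, THI2.1 and AT5G48490, in opposite directions, where that fit called 7.59% of all probe sets tested.

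THI2.1, the thionin gene known to be induced by jasmonate and expressed in flowers, had signals of 9626 and 9131 in the wild type, 4047 and 665 in atyak1-1, and 3636 and 2439 in atyak1-2. Every mutant array lay below both wild-type arrays, as did 11.1% of all probe sets tested, while its relative THI2.2 had every mutant array above them. The log2 change of THI2.1 was -2.08 ± 0.63 and did not pass (adjusted p = 0.18, limma). It did pass in the block fit on replicate number (adjusted p = 0.022), without atyak1-1 replicate 1 (-2.74, adjusted p = 0.00054) and without atyak1-1 replicate 2 (-1.43, adjusted p = 0.011), the array with the lowest signal. Leaving out either array takes the wide spread between the atyak1-1 arrays out of the error (SE 0.18 in both fits), and the remaining atyak1-1 array is assumed to vary like the other groups, so these passes are not read as support. The third thionin gene, AT1G66100, was dim on all arrays, at signals from 4.75 to 17.4, and was not tested.

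**Figure D4:**
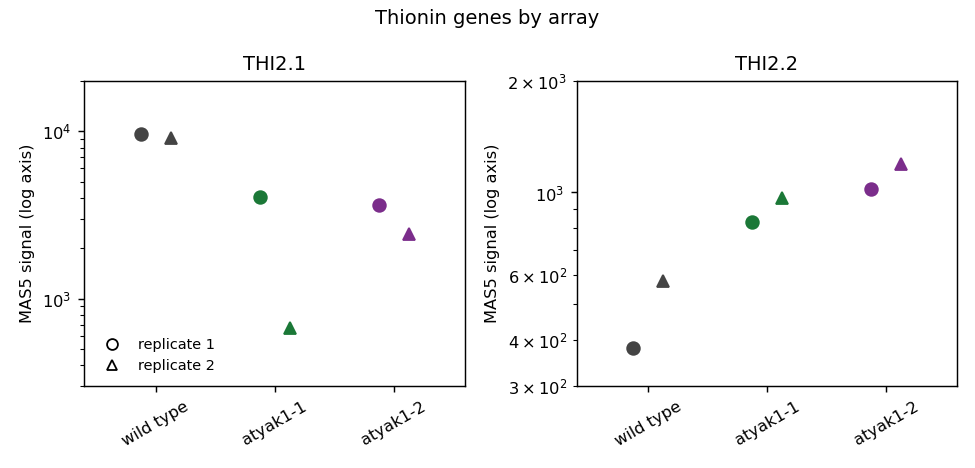
MAS5 signal (log axes with different ranges) of the thionin genes THI2.1 and THI2.2 on each array, circles for replicate 1 and triangles for replicate 2. THI2.1 is highest in the wild type, at 9131 and 9626, and lowest on the atyak1-1 replicate 2 array, at 665, while THI2.2 is lowest in the wild type, at 380 and 576.

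In the list of genes related to DIR1, which holds AT5G55450, 4 others were tested. AT5G48490, a close relative of DIR1 in sequence, had 1769 and 1317 in the wild type, 2554 and 1793 in atyak1-1, and 3012 and 2085 in atyak1-2. The mutant arrays all lay above the wild type, though atyak1-1 replicate 2 did so only narrowly. Its log2 change of 0.60 ± 0.22 did not pass (adjusted p = 0.25, limma), and it passed with the replicate block (adjusted p = 0.0090). AT1G66850, AT3G18280 and AT1G48750, all lipid transfer proteins, had log2 changes of 0.10 ± 0.12, 0.05 ± 0.15 and -0.14 ± 0.14, with adjusted p from 0.64 to 0.89.

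Of the type 1 lipid transfer proteins AT5G01870 was the 1 gene bright enough to test. The other 3 with a named probe set were dim, and among them AT2G15325 had 2.19 and 2.90 in the wild type and from 9.24 to 22.6 in the mutants, signals near background from which no fold is taken. The lectin genes AT1G53070 and AT1G53060 had log2 changes of -0.01 ± 0.13 and -0.33 ± 0.30 (adjusted p = 0.98 and 0.61). AT1G53070 had signals between 1115 and 1394 on all 6 arrays, the wild type at 1254 and 1214 lying inside the range of the mutants. AT3G16530, another lectin gene, was dim, with 13.1 and 5.32 in the wild type and from 6.12 to 55.5 in the mutants.

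The defensins LCR69 and LCR68, small antimicrobial peptides, had 0.13 ± 0.10 and -0.18 ± 0.15 (adjusted p = 0.54 and 0.60), and 6 more with a named probe set were too dim to test. PDF1.2, the defensin used as a marker of jasmonate and ethylene defence, ranged from 29.1 to 71.4 in the wild type and from 28.2 to 102 in the mutants, so the groups overlapped. Of the 17 salicylic acid genes listed, GRX480 and SAG101 had a named probe set, both dim, at 21.2 to 47.3 and 48.2 to 70.8 over all arrays. None of the 15 jasmonate and ethylene genes had one. The remaining genes of both lists were not analysed here.

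**Figure D5:**
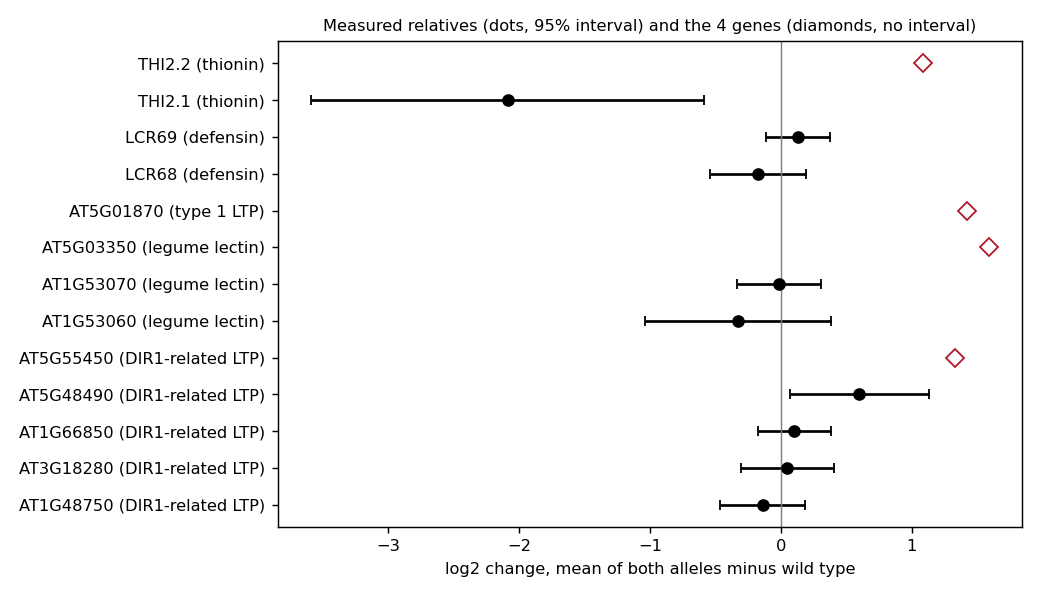
Log2 change of the allele mean against the wild type for the 9 measured relatives (dots, 95% interval from limma) and the 4 genes (diamonds, shown with no interval since they were chosen on this contrast). The 4 genes lie between 1.09 and 1.59, AT5G48490 at 0.60 and THI2.1 at -2.08.

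The genes whose profiles were most like those of the 4 were sought among 8186 other genes with a tested probe set, by the root mean square difference between log2 profiles over the 6 arrays, each centred on its mean. For AT5G03350 the nearest was AT5G01870, at 0.15 log2 units, so 2 of the 4 genes were each among the other's 3 nearest. AT5G59670, a receptor kinase gene, followed at 0.15 and BAT1, a brassinosteroid acyltransferase, at 0.18. For AT5G01870 the nearest were BAT1 and AT5G59670, both at 0.12. BAT1 was also among the nearest of AT5G55450, at 0.23, after AT1G13750 at 0.21 and level with ICL, which encodes isocitrate lyase, at 0.23.

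THI2.2 lay farther from the other 3 genes than these did from each other, AT5G55450 lying 0.25 from AT5G03350 and 0.24 from AT5G01870. The nearest to THI2.2 were AT3G24506 at 0.11, AT1G30760, of the berberine bridge enzyme family, at 0.11 and AT5G56370 at 0.14. Its distance to the other 3 of the 4 genes ran from 0.28 to 0.39. AT3G24506 shared its wild-type split, with 171 and 254 in the wild type, and from 354 to 444 in the mutants. BAT1 had 153 and 145 in the wild type and from 333 to 413 in the mutants. The median distance over all genes compared was between 0.55 and 0.74 for the 4 genes, and since the 4 were chosen to be higher in the mutants, a likeness among them follows in part from that choice.

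All 4 genes lie on chromosome 5 in RefSeq's gene table, in different neighbourhoods. That chromosome held 24% of the tested probe sets with a named gene. Of the 22 such probe sets called higher in the mutants, 8 (36.4%) lay there, the 4 genes among them. As the same contrast chose the 4 genes, nothing is read from their shared chromosome. Of the 24 protein-coding genes within 3 places of any of the 4 genes, 8 were named on the array and 5 could be tested. None of the 5 passed in limma, and their log2 changes ran from -0.10 for AT5G03370 to 0.28 ± 0.14 for AT5G01850 (adjusted p = 0.35). The named neighbours under the filter were dim, and no fold is taken from them. AT5G36900, near THI2.2, had 7.35 and 3.31 in the wild type and from 13.3 to 41.4 in the mutants. AT5G03360, near the lectin gene, had 13.9 and 1.73 against 13.9 to 39.9, and AT5G01860, near AT5G01870, had 26.7 and 83.3 against 21.9 to 53.6. AT5G03345, the gene just before the lectin gene in order along the chromosome, had signals from 1689 to 1997 on all arrays and a log2 change of -0.01 ± 0.12. None of the neighbours of AT5G55450 had a named probe set. These neighbours were looked up after the values of the 4 genes were known.

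Markers of other bud tissues gave the following values on the same arrays. All 4 tapetum genes with a named probe set, of 14 listed, had higher means in the mutants, with a summed signal of 4583 and 9390 in the wild type, from 6253 to 10191 in atyak1-1 and from 6372 to 8771 in atyak1-2, so the groups overlapped, and none passed in limma. The epidermis and green tissue lists had 9 genes each, with 1 named probe set each. CR4 of the epidermis had signals between 312 and 393 on all arrays, and RCA of green tissue between 11094 and 14785. Of the 6 carpel and ovule genes listed, only ALC and SPT had a named probe set. They had 0.64 ± 0.18 and 0.23 ± 0.15 and did not pass (adjusted p = 0.16 and 0.48, limma). Their summed signal was 749 and 1014 in the wild type and between 1102 and 1349 in the mutants. Every mutant array lay above the wild type for ALC, as for 21.3% of all probe sets tested, but not for SPT. WRKY53 and WRKY6 of the senescence list, of 9 listed, summed to 283 and 83.6 on wild-type replicates 1 and 2 and between 32.9 and 221 in the mutants. WRKY53 was lower in replicate 2 in every genotype, at 230 and 36.5 in the wild type, 151 and 29.2 in atyak1-1, and 179 and 47.1 in atyak1-2. WRKY6 was dim, at 53.2 and 47.0 in the wild type and from 3.67 to 70.3 in the mutants, and was not tested. The part of any of these tissues in the higher signal of the 4 genes was not tested.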

How the data were processed

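The deposited table holds the linear MAS5 intensity of 22810 probe sets, made by the authors with GCOS and MAS5, per the submitters' processing notes, which give no version or order of steps here. After trimming 2% at each end, the mean was 500.04 on every array, so the authors had scaled the arrays to 1 level. Detection calls were not used here.

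Signals were taken to log2 without a pseudocount. Control probe sets (64) and the third of the rest with the lowest mean were left out, which kept 15164, the dimmest with a geometric mean of 73.6. With limma 3.58.1 in R 4.3.3, genotype means were fitted across the 6 arrays with a variance trend, and the Benjamini-Hochberg adjustment covered all probe sets tested. The fit was run on simulated data with independent noise and no replicate effect, so that check does not cover the pairing of samples. Its outcome is not given here. Plots used matplotlib 3.10.9 in Python 3.11.15.

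Names came from the platform's probe table through RefSeq gene records: 13513 probe sets had 1 gene, 503 several and 8794 none listed. Where a gene had several probe sets, the brightest was used. The genes, lists and tests were chosen with earlier results of these data known. Besides the 4 genes, the text names genes of each family or pathway list that passed, or else up to 4 by smallest p, and the 3 nearest profiles. Of the tissue marker lists, the late pollen and tapetum genes are given as counts and summed signals, with AT5G45880 alone named. That gene, dim list members, the single tissue markers and neighbours were named after their values were seen.

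The replicate numbers in the titles were taken to pair the samples, since the correlations of deviations from the group means were 0.25 and 0.35 for the wild type with atyak1-1 and atyak1-2 and 0.61 between the alleles. With 2 replicates this evidence is weak. The main fit has no block. P-values test differences between genotype means against the spread between these samples, with the error of each probe set drawn in part from all probe sets. Alternatives were no filter, a stricter filter leaving out 50%, log2(signal + 32), quantile normalization, median centring, no variance trend, array weights, the block, each array left out in turn, and, for the allele comparison, the 4 mutant arrays alone.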

Additional observations from a re-analysis of the deposited data

How the results depend on the processing

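Since the 4 genes were chosen on the contrast with the wild type and their arrays do not overlap, its direction could not turn with arrays left out. Over 15 alternatives the size of the log2 change ran from 1.49 to 1.66 for AT5G03350, from 0.79 to 1.39 for THI2.2, from 1.37 to 1.46 for AT5G01870 and from 1.04 to 1.63 for AT5G55450. No allele difference of the 4 genes passed under any alternative, the smallest adjusted p being 0.999. That of AT5G01870 turned sign without atyak1-1 replicate 2 (0.0039) and without atyak1-2 replicate 2 (0.016), within a range of -0.12 to 0.02, and with arrays left out those of THI2.2 and AT5G55450 ran from 0.19 to 0.42 and from -0.60 to -0.11. With the replicate number as a block, the interval of AT5G55450 was -0.70 to -0.01, its adjusted p still 0.9998, and the block changed no call of the 4 genes between the alleles. The count called between mutants and wild type, 292, was 445 without the filter, 113 under the stricter filter and 1151 with the replicate block. With each array left out it ran from 10 to 610, with 10 and 11 when the first or second wild-type array was dropped, 610 when atyak1-1 replicate 1 was, and 119 and 93 when the first or second atyak1-2 array was. Between the alleles 2 were called with the replicate block and from 0 to 6 with arrays left out, the 6 without atyak1-1 replicate 1. Of the 9 relatives, 2 were called with the replicate block, 0 to 1 with single arrays left out (THI2.1, without either atyak1-1 array), and 1, THI2.1 again (adjusted p = 0.0060), without both replicate 2 mutant arrays, a setting chosen after seeing the data. Each of these 3 fits removes the spread between the atyak1-1 arrays and takes the error from the other groups, so they do not support the call. Dim signals limit what the relatives can show, since 20 of the 29 lay under the filter.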
